A study of Mus musculus with 35 samples.

Results

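The 8 libraries described here come from lung metastases of mouse pancreatic ductal adenocarcinoma (PDAC) collected at day 14, counted from the withdrawal of doxycycline (Dox), 4 labelled Smad4 off and 4 labelled Smad4 on, out of 35 libraries in the series. They were chosen by organ, day and label alone, and every gene of the count table was kept. All 8 carry the same tumor genotype, named KC-shSmad4, which includes Ptf1a-Cre, which directs recombination to the pancreas, a Cre-activated rtTA3-IRES-mKate2 transgene at Rosa26, and a Dox-inducible, GFP-linked short hairpin RNA (shRNA) against Smad4 in the Col1a1 homing cassette. Cells cultured from primary tumors of this model and transduced with luciferase were injected into the tail vein of female athymic Foxn1nu hosts aged 6 to 8 weeks, which lack most T cells but keep myeloid cells and the lung's own stroma. Dox feed keeps the shRNA and GFP on (Smad4 off). Its withdrawal 6 weeks after injection was meant to return Smad4 (Smad4 on), so Dox, shRNA with GFP, and Smad4 change together and cannot be told apart. Which of the study's independent shRNAs or tumor lines each library carries is not given in the sources used here. mKate2-positive cells were sorted, and the mouse number in each label names the replicate.

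SMAD4 is the common partner of the receptor-activated SMADs. Transforming growth factor beta (TGF-beta) ligands signal through SMAD2 and SMAD3, bone morphogenetic proteins (BMPs) through SMAD1 and SMAD5, and each set enters the nucleus with SMAD4 to bind DNA. In PDAC, where SMAD4 is often lost, this arm is known for slowing division and for driving epithelial-to-mesenchymal transition and matrix genes. The comparison asks how the transcriptome of lung metastases differs between the labels.

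The measured Smad4 mRNA went against the labels. Smad4 stood at 121, 105, 124 and 100 counts per 1000000 (CPM, scaled for library composition) in mice 1 to 4 labelled Smad4 off, and at 15.8, 17.7, 18.5 and 20.8 CPM in mice 1 to 4 labelled Smad4 on. The groups lay far apart, at 112 ± 11.8 against 18.2 ± 2.09 CPM (SD, n = 4 each), a level 6.18-fold lower in the libraries labelled Smad4 on. The log2 fold change was -2.63 (SE 0.13; edgeR quasi-likelihood test, Benjamini-Hochberg adjusted p = 0.000119). The libraries are therefore called by their labels throughout, and every difference is given as labelled on minus labelled off. The same gene was lower in the libraries labelled on at day 7 in the lungs, at a log2 difference of -2.21 (SE 0.22, 4 off, 2 on, edgeR adjusted p = 0.151), and at day 14 in the liver, at -2.93 (SE 0.23, 3 and 3, edgeR adjusted p = 0.0625).

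The 8 libraries held 12092573 to 25413164 counted reads, and 3 reads corresponded to 0.13 to 0.233 CPM. Mice 3 and 4 under both labels had counts for the mitochondrial gene mt-Co3 and mice 1 and 2 had none. This technical difference, read from the counts and not from the labels, also set apart 37 genes that passed 0.5 CPM in all 10 such libraries of the series and stayed under 0.1 CPM in the other 25. It separated the libraries along the first principal component, which held 55.3% of the variance, while the labels separated along the second, with 16.2%. Genes of glycolysis and hypoxia split the same way. They summed to 9633, 7229, 20431 and 15036 CPM in mice 1 to 4 labelled off. In mice 1 to 4 labelled on they summed to 6531, 7353, 18457 and 14345 CPM. Whether the first component holds more than the technical difference was not tested. Since each label has 2 libraries of either kind, the label difference could be measured within each kind.

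**Figure D1:**
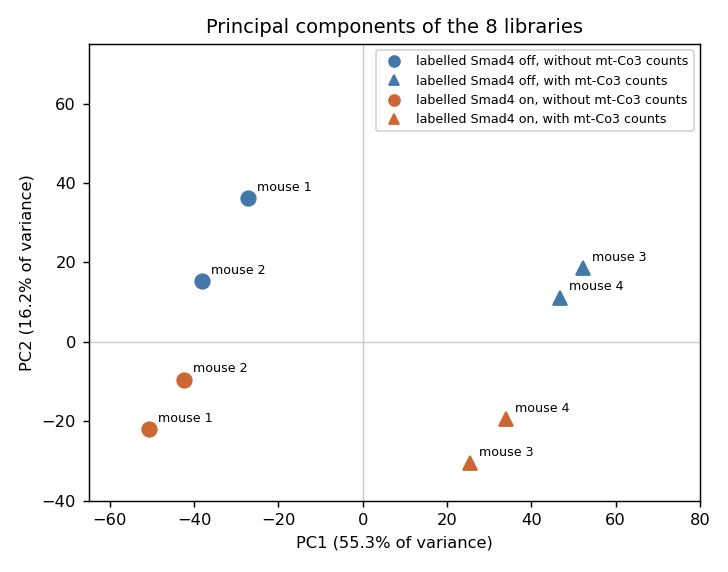
Principal component scores of the 8 libraries (PC1 horizontal, PC2 vertical, unitless, with the share of variance); colours give the label and symbols give whether mt-Co3 was counted. Libraries without mt-Co3 counts sit left of 0 and those with them right of 0, while all libraries labelled Smad4 off lie above 0 on PC2 and all those labelled on lie below.

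Markers of the tumor epithelium were high in every library. The keratin and epithelial list (Krt8, Krt18, Krt19, Epcam, Cdh1 and 5 more) summed to between 9914 and 16194 CPM in libraries labelled off and between 8965 and 13376.5 CPM in those labelled on. Host lung transcripts were also present. Surfactant protein C (Sftpc), which defines alveolar type 2 cells, ran from 92.3 to 176 CPM under the off label and from 151 to 306 CPM under the on label. The female-host transcript Xist read 11.3, 7.01, 4.03 and 4.88 CPM in mice 1 to 4 labelled off and 15.6, 15.9, 5.15 and 5.41 CPM in mice 1 to 4 labelled on, so it was higher under the on label within both kinds of library, with groups that overlapped over all 8. Genes of the male Y chromosome (Ddx3y, Eif2s3y, Kdm5d and Uty) summed to no more than 0.0868 CPM in any library, although the study describes the tumor lines as male, so Xist was not checked as a measure of host cells by a male counterpart.

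Smad4 aside, edgeR called 3 genes between the labels with no covariate in the fit. A call is a fold change over 2 with an adjusted p under 0.05 in edgeR. Of 14751 genes tested, 3 (0.0203%) were higher and 1 (0.00678%) lower in the libraries labelled on, and the lower one was Smad4. Gli2, Slc29a3 and Pax9 were the higher ones. At an unadjusted p under 0.05, 763 genes (5.17%) were higher and 722 (4.89%) lower. The number of calls depended on the tool. DESeq2, the study's own tool, called 129 genes higher and 84 lower in the same libraries without a covariate, together 1.37% of 15562 genes with an adjusted p, and these held the 4 genes that edgeR called. In CPM, 404 genes (2.74%) were higher and 447 (3.03%) lower without overlap between the labels.

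Gli2 encodes a zinc finger transcription factor that carries hedgehog signals. It was close to the detection limit in mice 1 to 4 labelled off, at 1.32, 0.402, 0.39 and 0.797 CPM, and clearly counted in mice 1 to 4 labelled on, at 29.4, 46.8, 24.8 and 27.2 CPM. No library overlapped, and the means differed 44.1-fold. The log2 fold change was 5.51 (SE 0.42, edgeR adjusted p = 0.00297), and it was called in each of the 8 fits that left out 1 library (edgeR adjusted p from 0.00272 to 0.0267). The gene lies on chromosome 1 from 118834132 to 119053619, minus strand (GRCm38).

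Slc29a3 encodes an equilibrative nucleoside transporter (ENT3) of lysosomal and mitochondrial membranes. Its values were 19, 19, 16.6 and 20.5 CPM in mice 1 to 4 labelled off against 65.5, 91.2, 51.7 and 63.5 CPM in mice 1 to 4 labelled on. The lowest library labelled on was thus well above the highest labelled off, with means 3.62-fold apart. The log2 fold change was 1.86 (SE 0.18, edgeR adjusted p = 0.0122). It lies on chromosome 10 from 60712072 to 60752794, minus strand.

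Pax9, a paired-box transcription factor of foregut endoderm and its derivatives, stood at 23.5, 29.8, 25.3 and 34.8 CPM in mice 1 to 4 labelled off and at 78.4, 103, 78.6 and 76.9 CPM in mice 1 to 4 labelled on. Mouse 2 labelled on was the highest and the other 3 were nearly level, all above every library labelled off. The log2 fold change was 1.57 (SE 0.16, edgeR adjusted p = 0.0155). It lies on chromosome 12 from 56691767 to 56712822, plus strand. Both Slc29a3 and Pax9 were sensitive to the number of libraries. With no covariate, Slc29a3 kept its call in 4 and Pax9 in 3 of the 8 fits that left out 1 library (edgeR adjusted p up to 0.0795 for each). The calls of Slc29a3 were lost without mouse 1, 2 or 3 labelled off or mouse 1 labelled on, and those of Pax9 without the same libraries or mouse 3 labelled on. The log2 fold changes stayed between 1.69 and 1.97 for Slc29a3 and between 1.47 and 1.68 for Pax9.

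SMAD complexes bind short CAGAC elements, so the 250 bases upstream of the RefSeq start are shown for the genes called higher in the fit without covariates and for Ltbp1, the TGF-beta pathway gene called lower in the fits described further on. The sequences are the RefSeq promoters of build GRCm38.p6, 5′ to 3′ on the gene's strand, with CAGAC or its reverse complement GTCTG in capitals. They cover chr1:119053620-119053869 (minus strand, Gli2), chr10:60752783-60753032 (minus, Slc29a3), chr12:56695221-56695470 (plus, Pax9) and chr17:75005279-75005528 (plus, Ltbp1, most upstream of its entries). The RefSeq start used for Pax9, the one entry of that gene, lies 3704 bases inside the gene interval given above, so its window is not upstream of the interval's first base, and the bases before that one were not searched.
Gli2: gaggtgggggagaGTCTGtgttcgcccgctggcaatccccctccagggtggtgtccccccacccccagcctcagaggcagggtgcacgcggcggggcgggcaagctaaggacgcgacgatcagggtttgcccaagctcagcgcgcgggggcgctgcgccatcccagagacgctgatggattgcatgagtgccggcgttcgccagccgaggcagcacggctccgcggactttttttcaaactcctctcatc
Slc29a3: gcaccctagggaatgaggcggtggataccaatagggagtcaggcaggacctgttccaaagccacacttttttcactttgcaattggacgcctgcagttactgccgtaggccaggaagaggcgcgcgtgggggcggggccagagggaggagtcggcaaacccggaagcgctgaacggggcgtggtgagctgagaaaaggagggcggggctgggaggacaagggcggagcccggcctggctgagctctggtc
Pax9: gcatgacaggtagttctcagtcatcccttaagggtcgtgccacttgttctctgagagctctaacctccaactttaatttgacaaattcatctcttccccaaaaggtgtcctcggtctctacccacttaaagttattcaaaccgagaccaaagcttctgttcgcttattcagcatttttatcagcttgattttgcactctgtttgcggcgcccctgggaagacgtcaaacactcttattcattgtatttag
Ltbp1: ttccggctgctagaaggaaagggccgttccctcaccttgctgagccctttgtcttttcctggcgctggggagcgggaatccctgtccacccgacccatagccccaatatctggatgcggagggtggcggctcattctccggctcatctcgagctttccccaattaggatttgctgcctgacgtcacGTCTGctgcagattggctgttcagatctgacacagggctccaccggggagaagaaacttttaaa
Gli2 and Ltbp1 each held 1 element and the windows of Slc29a3 and Pax9 held none. The element is common: 42.2% of 27025 promoters in the same table held it on either strand in this window, as did 28 of 70 genes called higher (40.0%) and 9 of 20 called lower (45%) with the mt-Co3 covariate described next. The longer palindrome GTCTAGAC and the CAGA box AGCCAGACA were found in 0.174% and 0.289% of all promoters, and in none of these genes.

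Accounting for the technical difference enlarged the set of called genes. With mt-Co3 detection as a covariate, 95 genes (0.644%) were higher and 32 (0.217%) lower in the libraries labelled on. The mouse number, which the labels do not call a pairing, was also fitted as a replicate block. That block absorbs the technical difference as well, and with it 82 (0.556%) were higher and 27 (0.183%) lower. Of these, 65 higher and 17 lower genes were shared, which is 68.4% and 53.1% of the calls with the covariate and 79.3% and 63% of the calls with the block. Of the genes called with the covariate, 60 of the 95 higher and 26 of the 32 lower had labelled groups that did not overlap in CPM. Leaving out 1 library from the fit with the covariate gave 26 to 132 higher and 10 to 56 lower genes. The lowest counts, 26 and 10, came without mouse 3 labelled off and the highest, 132 and 56, without mouse 4 labelled on. Smad4, Gli2, Slc29a3 and Pax9 were called in all 8 of those fits. Among the 2 against 2 libraries with mt-Co3 counts, edgeR called Gli2 higher and Smad4 and Ctse lower. Among the libraries without them it called 12 genes higher, with Gli2, Slc29a3, Pax9 and Cxcl2 among them, and 6 lower, including Smad4.

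**Figure D2:**
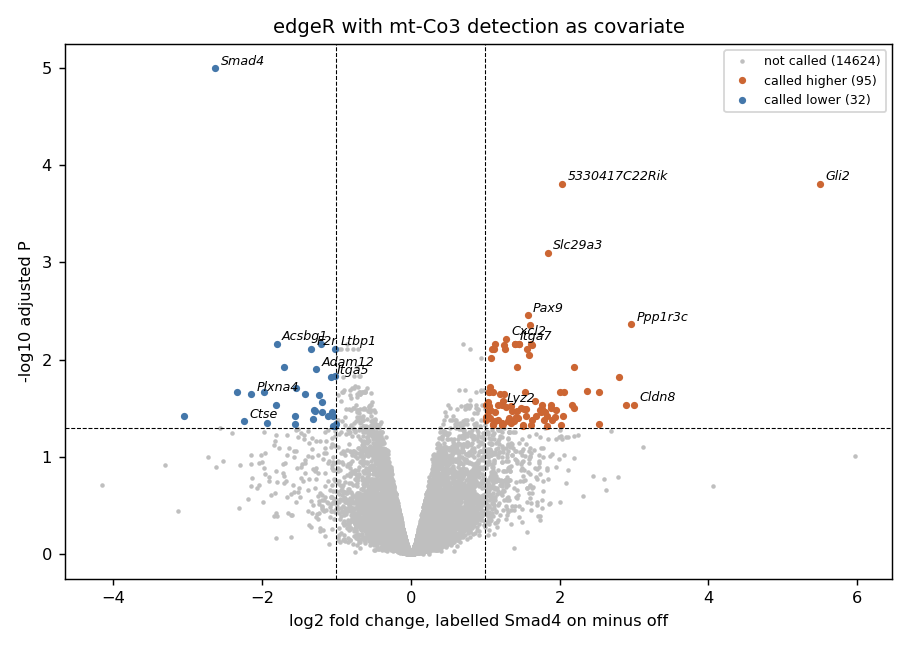
Each point is 1 of 14751 genes, with its log2 fold change (labelled Smad4 on minus off) on the horizontal axis and -log10 of the edgeR adjusted p, with mt-Co3 detection as covariate, on the vertical axis; dashed lines mark a 2-fold change and an adjusted p of 0.05. The 95 genes called higher and 32 called lower are coloured, with Smad4 highest at the left and Gli2 farthest to the right among the called genes.

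The genes next to these in the block fit had varied roles. Those in this paragraph and the next were chosen among genes whose labelled groups do not overlap. Their lack of overlap is thus no further evidence. 5330417C22Rik, also known as Elapor1, encodes an endosome and lysosome associated protein. It read 27.3, 25.9, 13.9 and 17.3 CPM in mice 1 to 4 labelled off and 116, 107, 73.9 and 51.5 CPM in mice 1 to 4 labelled on, without overlap (log2 fold change with the mt-Co3 covariate 2.04, SE 0.13, edgeR adjusted p = 0.000156). Ppp1r3c, a glycogen-targeting subunit of protein phosphatase 1, rose from between 0.349 and 0.862 CPM to between 2.15 and 6.35 CPM (2.96, SE 0.30, adjusted p = 0.0043). Shisa2, an attenuator of WNT and FGF receptor traffic, rose from 16.4 to 23.4 CPM under the off label to 44.9 to 88.5 CPM under the on label (1.6, SE 0.16, adjusted p = 0.0043). The tight junction gene Cldn8 rose from at most 2.3 CPM to at least 7.94 CPM (3.00, SE 0.46, adjusted p = 0.0289). Serpinb9g, a serine protease inhibitor, was called with the block only among these edgeR fits. It read 0, 0.69, 0.0868 and 0 CPM in mice 1 to 4 labelled off and 1.32, 37.5, 2.7 and 8.92 CPM in mice 1 to 4 labelled on, so mouse 2 of each label stood highest.

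On the lower side, F2r, the thrombin receptor PAR1, fell from 435, 305, 458 and 276 CPM in mice 1 to 4 labelled off to 154, 151, 137 and 142 CPM in mice 1 to 4 labelled on (log2 fold change with the mt-Co3 covariate -1.34, SE 0.17, edgeR adjusted p = 0.0077). The on-labelled libraries were almost level and all lay below the off-labelled ones. Plxna4, a semaphorin receptor subunit, fell from between 7.61 and 26 CPM to between 2.11 and 4.54 CPM (-2.15, SE 0.34, adjusted p = 0.0226). Acsbg1, a long-chain acyl-CoA synthetase, fell from between 55.4 and 191 CPM to between 19.4 and 40.4 CPM (-1.80, SE 0.19, adjusted p = 0.0069). Galnt15, which starts O-linked glycosylation, fell from between 15.1 and 23.5 CPM to between 7.44 and 9.06 CPM (-1.20, SE 0.14, adjusted p = 0.0069). The uncharacterised 2310007B03Rik also fell with the covariate (-1.42, SE 0.22, adjusted p = 0.0227). Apba1, a synaptic adaptor, and Ncam1, a neural cell adhesion molecule, were called lower with the block, at edgeR adjusted p of 0.018 and 0.0232, and had adjusted p of 0.0682 and 0.0828 with the covariate. Inhbb, which encodes an activin and inhibin subunit, was called higher with the block in the same way (adjusted p = 0.0075 against 0.0879). It read 13.9, 21.9, 15.4 and 24.6 CPM in mice 1 to 4 labelled off and 33.7, 42.3, 28.7 and 62.1 CPM in mice 1 to 4 labelled on.

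**Figure D3:**
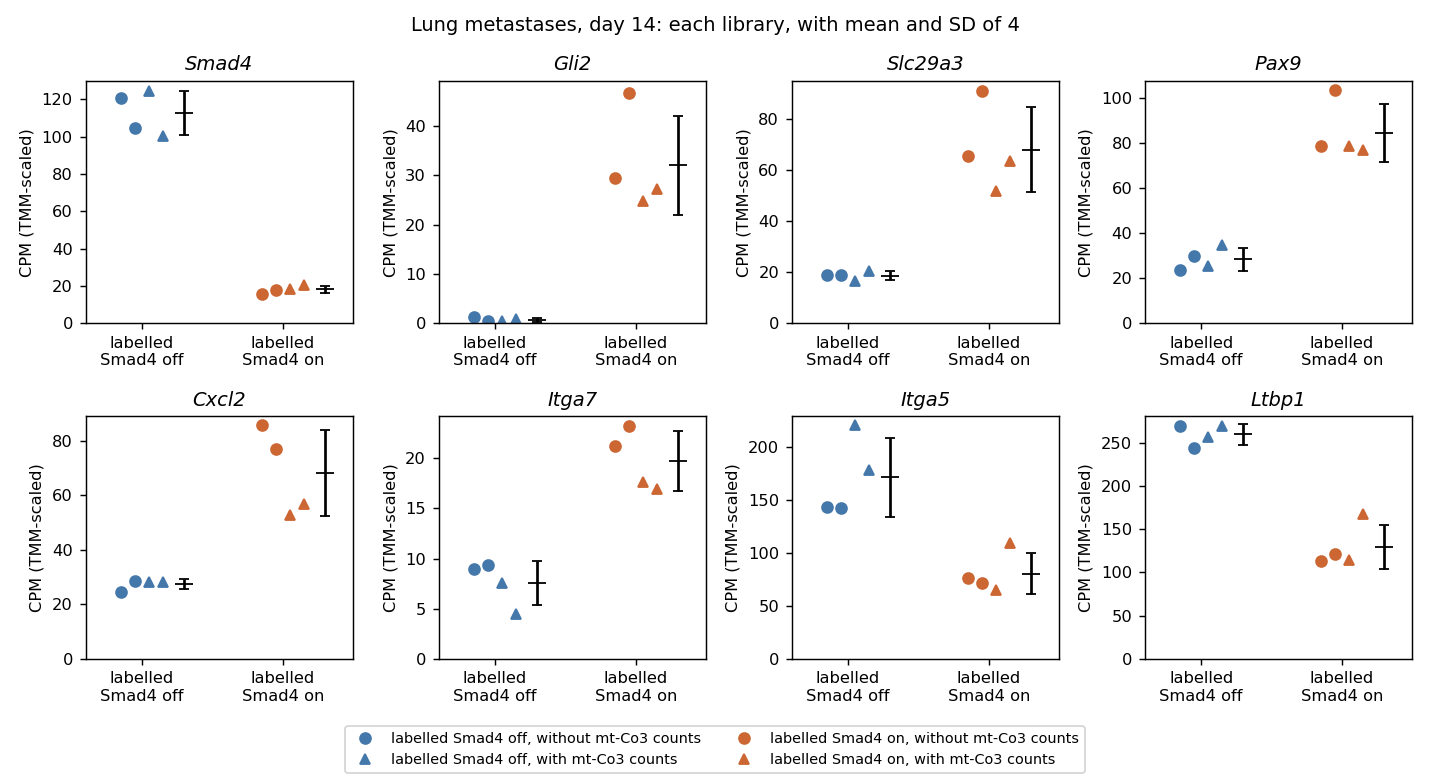
CPM (vertical axis, linear from 0) of Smad4 and 7 other genes in each of the 8 libraries, with mean and SD of 4 beside the points; colours give the label and symbols give whether mt-Co3 was counted. In each panel the labelled groups do not overlap; Smad4, Itga5 and Ltbp1 are lower and Gli2, Slc29a3, Pax9, Cxcl2 and Itga7 are higher under the on label.

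Genes of TGF-beta signalling held 1 call. Of 26 tested genes of feedback, ligand, receptor and direct-target function, none was called without a covariate, and 1 was called lower and none higher with mt-Co3 as covariate, a fit that called 0.644% of all tested genes higher and 0.217% lower. Lists of this size would thus mostly hold no call at the rate of all genes, and a list without one says nothing about its members. The median log2 fold change was -0.11, beside -0.0037 over all tested genes, with 18 members below 0 and 8 above. The summed level of the 26 genes was nonetheless lower without overlap, at 5308 to 6311 CPM labelled off and 4064 to 5049 CPM labelled on (5789 ± 435 against 4645 ± 420 CPM, SD, n = 4), and the sum was not tested. The called member was Ltbp1, which holds latent TGF-beta in the matrix. It read 270, 244, 256 and 269 CPM in mice 1 to 4 labelled off and 114, 121, 114 and 167 CPM in mice 1 to 4 labelled on, with mouse 4 above the other 3 labelled on (log2 fold change with the covariate -1.01, SE 0.13, edgeR adjusted p = 0.0077). Pmepa1 and Smad7, both feedback inhibitors, had log2 differences of -0.68 and -0.40 with the covariate that missed the threshold (edgeR adjusted p = 0.112 and 0.165). Among the 7 tested SMAD factors only Smad4 was called, and Smad3 read 339 ± 40.8 against 244 ± 37.1 CPM (edgeR adjusted p = 0.105 with the covariate).

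Among 16 BMP pathway and Id genes, the median was -0.29, and Chrd was the member called lower with the covariate, beside 0.217% of all tested genes. Chrd encodes chordin, an extracellular BMP antagonist, at 10.7 ± 1.37 CPM labelled off and 5.3 ± 1.65 CPM labelled on (SD, n = 4, log2 fold change -1.04, SE 0.22, edgeR adjusted p = 0.0481). It was not called with the block (adjusted p = 0.075), where Bmp7 was instead (adjusted p = 0.0437), from between 1.26 and 6.14 CPM to between 0.318 and 1.66 CPM with overlapping groups. Id1, an inhibitor of differentiation downstream of BMP and TGF-beta signals, was lower at an adjusted p of 0.0146 with the covariate, at a log2 difference of -0.70 (SE 0.10) that does not reach 2-fold.

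The hedgehog list held 1 call among 17 tested members in each edgeR fit named here, and it was Gli2. Of all tested genes, 0.0203% were called higher without a covariate, 0.644% with mt-Co3 as covariate and 0.556% with the block. The list median was -0.11, with 8 members above 0 and 9 below. Hhip, a hedgehog-binding inhibitor and itself a target of the pathway, read 15.5, 13.6, 13.9 and 12.5 CPM in mice 1 to 4 labelled off and 10.1, 32.4, 58.7 and 107 CPM in mice 1 to 4 labelled on. The groups overlapped through mouse 1 labelled on (log2 fold change with the covariate 1.63, SE 0.60, edgeR adjusted p = 0.235). DESeq2 called Hhip higher without a covariate (adjusted p = 0.0183) and not with it (adjusted p = 0.083), and its log2 difference was 2.54 among libraries with mt-Co3 counts and 0.32 among those without. The ligand genes Dhh and Ihh had log2 differences of -0.83 and 0.48 with the covariate and were not called (edgeR adjusted p = 0.0502 and 0.169).

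Of 14 genes of nucleoside transport and metabolism, Slc29a3 was called higher and Cda lower with the covariate, beside 0.644% and 0.217% of all tested genes. Cda encodes cytidine deaminase, which deaminates cytidine and its analogs. It fell from 11.9, 14, 13.1 and 21 CPM in mice 1 to 4 labelled off to 9.25, 5.76, 6.81 and 7.7 CPM in mice 1 to 4 labelled on, with an edgeR adjusted p of 0.0456 with the covariate and 0.0504 with the block. Slc29a1, the plasma membrane transporter ENT1, differed by -0.60 on the log2 scale (SE 0.13, adjusted p = 0.0523 with the covariate), with non-overlapping groups.

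Matrix and adhesion genes were called by edgeR in both directions, beside 0.644% of all tested genes called higher and 0.217% lower with the covariate. Matrix proteases and their inhibitors had 16 of 22 tested members below 0, with a median of -0.24 and sums of 2857 to 3047 CPM labelled off against 2312 to 2698 CPM labelled on. The gelatinase gene Mmp9 went the other way, from between 1.04 and 3.19 CPM to between 2.33 and 24.3 CPM with overlapping groups (log2 fold change 2.63), and was called by DESeq2 (adjusted p = 0.00279) but not by edgeR (adjusted p = 0.251). Without a covariate DESeq2 called 2 members of this list higher, Mmp9 and Serpine2, and 1 lower, Adam12. Of all 15562 genes with an adjusted p, that fit called 129 higher and 84 lower (1.37% together). Laminins and other basement membrane genes had 10 of 13 below 0, with a median of -0.27. Among them DESeq2 without a covariate called Lamb3 lower (log2 fold change -1.57, adjusted p = 0.00774), with overlapping groups. Its edgeR adjusted p was 0.178 with the covariate. Integrins summed to 3538 to 4150 CPM labelled off and 2614 to 3032 CPM labelled on, also without overlap, although 7 of 15 lay below 0 and 8 above. All 9 tested fibrogenic genes named by the study had a negative log2 fold change, with a median of -1.0, although that list was chosen by the study in these tumors and is not independent evidence of its direction. In edgeR none was called without a covariate and 1, Itga5, with it. DESeq2 without a covariate called 3 of them lower, Itga5, Ccbe1 and Has2, beside 84 of all 15562 genes with an adjusted p. Itga5, the alpha chain of the fibronectin receptor, read 143, 142, 221 and 179 CPM in mice 1 to 4 labelled off and 76.5, 71.1, 65 and 109 CPM in mice 1 to 4 labelled on (log2 fold change -1.07, SE 0.16, edgeR adjusted p = 0.0151). Ccbe1, a secreted matrix and lymphangiogenic protein, read 20 ± 2.83 against 4.55 ± 3.24 CPM without overlap but varied from 0.859 to 7.59 CPM among mice labelled on, and its edgeR adjusted p was 0.118 with the covariate. Has2, a hyaluronan synthase, differed by -1.81 (adjusted p = 0.18).
The metalloprotease gene Adam12 fell from 40.2, 25, 36.6 and 39.8 CPM in mice 1 to 4 labelled off to 12, 10.7, 16.1 and 21.2 CPM in mice 1 to 4 labelled on (log2 fold change with the covariate -1.27, SE 0.18, edgeR adjusted p = 0.0126). Fbln2, a fibulin of elastic and basement membranes, fell with the block (adjusted p = 0.0176) from 1196 ± 309 to 413 ± 202 CPM, and its adjusted p was 0.0628 with the covariate. Itga7, the laminin-binding integrin alpha 7, went the other way. It read 8.93, 9.37, 7.59 and 4.48 CPM in mice 1 to 4 labelled off and 21.2, 23.2, 17.6 and 16.9 CPM in mice 1 to 4 labelled on (1.40, SE 0.17, adjusted p = 0.0069). A gene on the opposite strand, Mettl7b, overlaps it and read 2.26 to 7.64 against 6.32 to 27.3 CPM, and how strand was used in counting is not stated. Among 23 collagens the basement membrane chains Col4a3 and Col4a4 were called higher with the covariate, beside 0.644% of all tested genes (1.78 and 1.5 on the log2 scale), both at or under 4.36 CPM in every library, and the median was -0.05. Neither was called with the block (adjusted p = 0.0627 and 0.0776), where Col3a1, a fibrillar collagen of stromal cells, was called higher instead (1.00, SE 0.13, adjusted p = 0.00935, against 0.52 with the covariate). Col3a1 read highest in mouse 4 under both labels, as did the fibroblast markers given further on, and their part in its difference was not tested.

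The 10 epithelial-to-mesenchymal transcription factors held no call under any edgeR fit shown here, with a median of -0.32 and 9 below 0. Zeb1 differed by -0.46 (edgeR adjusted p = 0.0546 with the covariate). The 17 epithelial and 13 mesenchymal identity genes also held none in those fits, with medians of 0.16 and -0.40. DESeq2 without a covariate called Rab25 higher and Cldn4 lower among the epithelial genes (adjusted p = 0.0104 and 0.00301). It called Mmp9 higher among the mesenchymal ones, beside 129 genes higher and 84 lower of all 15562. Mesenchymal genes summed to 10254 to 11330 CPM labelled off and 5702 to 10102 CPM labelled on, without overlap, and the sum was not tested. A large part of that sum is Fn1, at 5436 ± 1060 against 3300 ± 1538 CPM (SD, n = 4). The Fn1 groups overlapped, and its edgeR adjusted p was 0.532 without a covariate.

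Secreted immune signals gave the most calls of any pathway list with the mt-Co3 covariate, while edgeR without a covariate called none of them. With the covariate 5 of 30 tested cytokine and chemokine genes were higher and none lower, beside 0.644% and 0.217% of all tested genes, with a list median of 0.43 and 22 members above 0. None of the 5 was called with the Xist covariate described further on (edgeR adjusted p from 0.102 for Cxcl2 to 0.287 for Cxcl3). DESeq2 without a covariate called 7 higher and 1 lower, Csf2, beside 129 higher and 84 lower of all 15562 genes (1.37% together). Cxcl2, a neutrophil-attracting chemokine, was nearly level at 24.6, 28.6, 28.2 and 28.3 CPM in mice 1 to 4 labelled off and stood at 85.9, 76.9, 52.8 and 56.9 CPM in mice 1 to 4 labelled on (log2 fold change with the covariate 1.28, SE 0.14, edgeR adjusted p = 0.0061). Its relatives Cxcl1 and Cxcl3 rose from 117 ± 31.8 to 279 ± 43.4 CPM and from 2.69 ± 0.962 to 7.16 ± 1.88 CPM (adjusted p = 0.0263 and 0.043). Csf1, the growth factor of macrophages, rose from 27.6, 45.6, 24 and 31.1 CPM to 79.8, 118, 53.1 and 62.9 CPM in mice 1 to 4 (1.25, SE 0.20, adjusted p = 0.0227). Cxcl15, a chemokine of lung epithelium, rose from 11.1, 11.1, 5.42 and 7.92 CPM to 47.6, 37, 13.8 and 18.6 CPM in mice 1 to 4 (1.61, SE 0.19, adjusted p = 0.0069). Cxcl5, at 42.8 ± 23.5 against 171 ± 64.3 CPM, had non-overlapping groups and an adjusted p of 0.0647 with the covariate. Beside these, the summed macrophage and monocyte markers and alveolar type 2 markers were higher under the on label, as described with the host markers, as was the sum of mitochondrially encoded RNA, and their part in these differences was not tested.

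Interferon-stimulated genes lay above 0 in 25 of 26 tested members with a median of 0.61, and none was called with the covariate. Ifit3, an antiviral effector, was called with the block (edgeR adjusted p = 0.0266) and had an adjusted p of 0.0523 with the covariate. All 16 tested major histocompatibility class I genes lay above 0 with a median of 0.37. None was called in edgeR without a covariate, with the mt-Co3 covariate or with the block. H2-Q4 was called higher with the Xist covariate described further on (log2 fold change 1.54, SE 0.18, edgeR adjusted p = 0.0333, against 0.56 and 0.386 with mt-Co3 alone), with overlapping groups. In both lists mouse 2 labelled off stood above the other libraries of its label. Interferon-stimulated genes summed to 311, 714, 371 and 299 CPM in mice 1 to 4 labelled off and 735, 718, 494 and 492 CPM in mice 1 to 4 labelled on. Class I genes summed to 3353 CPM in mouse 2 labelled off, 1698 to 2475 CPM in the other 3, and 3220 to 3343 CPM labelled on. Macrophage and monocyte marker sums were also higher under the on label, as given further on, and their part in these differences was not tested.

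Gastric and foregut identity genes were called in both directions. With the covariate 2 of 23 rose and 1 fell, beside 0.644% and 0.217% of all tested genes. With the block 1 rose and 1 fell, beside 0.556% and 0.183%. Tff3, a secreted mucosal peptide, rose from 46.7, 44.9, 28.3 and 18.4 CPM in mice 1 to 4 labelled off to 240, 112, 82.8 and 53.1 CPM in mice 1 to 4 labelled on, without overlap (log2 fold change 1.74, SE 0.28, edgeR adjusted p = 0.0329). Tff2, of the same family, rose with overlapping groups from between 230 and 521 CPM to between 372 and 1446 CPM (1.01, SE 0.18, adjusted p = 0.0295), and libraries without mt-Co3 counts read higher under both labels. Tff2 was not called with the block (adjusted p = 0.0534). Ctse, the gastric protease cathepsin E, fell from 188, 76.4, 78.6 and 91 CPM in mice 1 to 4 labelled off to 49.9, 30.1, 13.6 and 10.8 CPM in mice 1 to 4 labelled on (-2.24, SE 0.38, adjusted p = 0.043). Summed alveolar type 2 and macrophage and monocyte markers were also higher under the on label, as given further on. Their part in the differences of this list was not tested.

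Genes of cholesterol synthesis lay below 0 together without reaching a call. All 20 tested cholesterol synthesis genes lay below 0, with a median of -0.48 and none at 2-fold, and 8 had non-overlapping groups, beside 3.03% of all tested genes in the lower direction. Sqle, an early oxygenation step of the pathway, read 122 ± 20 against 77.2 ± 7.79 CPM (log2 difference with the covariate -0.65, SE 0.10, edgeR adjusted p = 0.0213). The 20 tested fatty acid synthesis genes had a median of -0.08, with 14 below and 6 above 0. Among them, the desaturase Scd2 differed by -0.86 (SE 0.10, adjusted p = 0.0069) and the acyl-CoA synthetase Acsl3 by -0.85 (SE 0.11, adjusted p = 0.0077) with the covariate. Of 42 S phase genes 38 lay below 0 with a median of -0.21, while 52 genes of G2 and mitosis had a median of -0.0041, with 23 above and 29 below. No gene of either cycle list was called in any edgeR fit named here. The 8 cytostatic and apoptotic genes named by the study held no call either, with a median of -0.08.

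**Figure D4:**
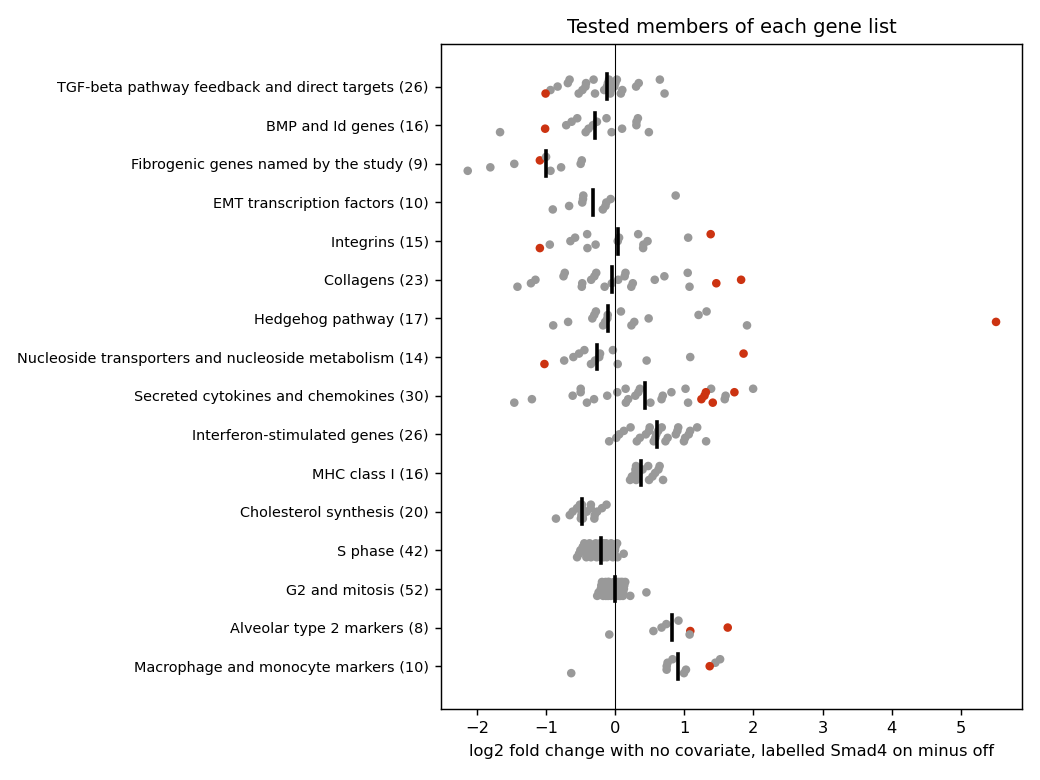
Log2 fold change with no covariate (horizontal axis, labelled Smad4 on minus off) of each tested member of 16 gene lists, with the number of members in brackets; black bars mark list medians and red points the members called with mt-Co3 as covariate. Cholesterol synthesis lies wholly below 0, major histocompatibility class I wholly above, and Gli2 stands alone at 5.51 in the hedgehog list.

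Host cell markers were higher under the on label in several lists. Alveolar type 2 markers summed to 550, 380, 348 and 350 CPM in mice 1 to 4 labelled off and 888, 747, 458 and 416 CPM in mice 1 to 4 labelled on. Of the 8 tested markers, Sftpd and Slc34a2 were called higher with the covariate, beside 0.644% of all tested genes, and the median log2 fold change was 0.83. Macrophage and monocyte markers summed to 323, 369, 250 and 331 CPM and to 764, 739, 481 and 407 CPM in the same order, so no library overlapped. Of 10 tested, 1 was called higher with the covariate, Lyz2, against the same 0.644%, and the median was 0.91. Lyz2 alone averaged 72.1 CPM labelled off and 186 CPM labelled on, with overlapping groups, beside mean sums of 318 and 598 CPM. Adgre1, Csf1r and Marco, more specific to macrophages, were at 1.17, 5.51 and 0.233 CPM or less in all libraries labelled off and at 3.58, 11.5 and 0.343 CPM or less in all labelled on. Fibroblast markers summed to 174 to 954 CPM and 347 to 1618 CPM, and mouse 4 was highest under both labels. Endothelial sums ran from 51.3 to 112 CPM and 91.8 to 121 CPM, and neutrophil sums from 2.41 to 25.5 CPM and 2.91 to 32.2 CPM. Erythroid markers went the other way, with all 5 tested below 0, a median of -0.92 and none called. Their sums overlapped, at 10.8 to 164 CPM labelled off and 16 to 43.8 CPM labelled on. In these sorted but bulk samples, more cells of a type and more RNA per cell cannot be told apart. Mitochondrially encoded RNA, a sign of RNA quality, moved with the label as well. It summed to 10331, 13354, 14612 and 11236 CPM in mice 1 to 4 labelled off and to 26464, 14197, 20133 and 13301 CPM in mice 1 to 4 labelled on, with groups that overlapped. Of its 15 tested genes 14 lay above 0, with a median of 0.66, and none was called. Its part in the list differences given above was not tested.

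Adding log2 CPM of Xist as a second covariate, chosen after seeing the data, left 8 genes higher (0.0542%) and 3 lower (0.0203%). Of the 127 genes called with the mt-Co3 covariate, 5 higher and 2 lower kept their call. All kept their direction. The median size was 1.49 in the 95 higher genes against 1.45 before, and 1.59 in the 32 lower genes against 1.31. These genes were picked for their difference in the same libraries, so the kept direction is no separate support. Xist itself was higher under the on label within both kinds of library. The fit has 1 residual degree of freedom fewer. Smad4 (log2 fold change -2.61, SE 0.18, edgeR adjusted p = 0.00329), Gli2 (4.51, SE 0.42, adjusted p = 0.0156), 5330417C22Rik (1.96, SE 0.22, adjusted p = 0.0265) and Ctse (-3.16, SE 0.35, adjusted p = 0.0436) were among those called, as was H2-Q4, whereas Slc29a3 and Pax9 had adjusted p of 0.0542 and 0.0758.

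**Figure D5:**
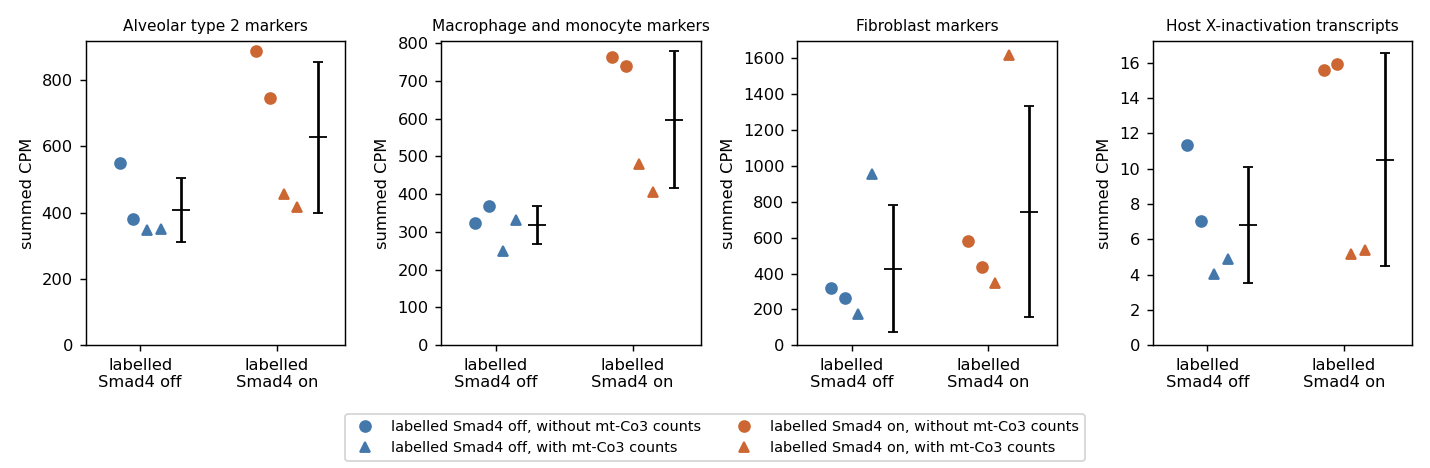
Summed CPM (vertical axes, linear from 0) of alveolar type 2, macrophage and monocyte, and fibroblast markers and of the X-inactivation transcripts (Xist and Tsix) in each library, with mean and SD of 4; colours give the label and symbols give whether mt-Co3 was counted. Macrophage sums do not overlap between labels, and in each panel except fibroblasts the libraries without mt-Co3 counts labelled on are the highest.

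The genes called at day 14 in the lungs were then read in libraries not used to call them. In liver metastases at day 14 (3 against 3), 90 of 93 higher genes tested there were also above 0 and 31 of 31 lower genes below 0, beside 49.6% and 50.4% of all genes. Their median log2 fold changes in the liver were 1.41 and -1.85, beside -0.0028 over all genes. In the lungs at day 7 (4 off against 2 on), 68 of 94 higher and 27 of 32 lower genes had the same sign, beside 50.6% and 49.4% of all genes, with medians of 0.37 and -0.67. Within those comparisons themselves edgeR called no gene without a covariate, with adjusted p of at least 0.0625 in the liver and 0.15 in the lungs at day 7 for the genes named here. The genes called here give the following differences side by side. Gli2 stood at 5.95 (SE 0.51) in the liver and 4.14 (SE 0.82) in the lungs at day 7. Slc29a3 stood at 2.18 (SE 0.27) and 1.70 (SE 0.29), and Pax9 at 1.77 (SE 0.20) and 1.82 (SE 0.26). Ltbp1 stood at -1.75 (SE 0.47) and -0.45 (SE 0.22), Itga5 at -1.85 (SE 0.48) and -0.44 (SE 0.32), Adam12 at -2.49 (SE 0.42) and -1.37 (SE 0.29), and Acsbg1 at -2.88 (SE 0.99) and -0.0086 (SE 0.66). Cxcl15 stood at 0.74 (SE 1.02) and -0.31 (SE 0.73), and Cxcl1 at 0.37 (SE 0.67) and 0.61 (SE 0.67).

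The label difference itself was compared between days and organs with interaction terms. Between day 14 and day 7 in the lungs, edgeR called none of 16220 genes (0%), with 953 (5.88%) at an unadjusted p under 0.05. DESeq2 called 9 of 15962 genes (0.0564%). Between lungs and liver at day 14, edgeR called none of 15869 (0%), with 478 (3.01%) at an unadjusted p under 0.05. DESeq2, fitted without the expression filter used in edgeR, called 4 of 31486 genes (0.0127%). They were Prss12 (log2 interaction 7.63, SE 1.68), Cavin4 (7.95, SE 1.62), Gng11 (3.18, SE 0.56) and Gap43 (8.43, SE 1.78). The levels behind these large values are not given here. All 4 had a more positive difference in the lungs and were named after their values were seen. The smaller day 7 values of Ltbp1 and Itga5 were therefore not shown to differ from those at day 14. For Gli2 the interaction was 1.37 (SE 0.95, edgeR adjusted p = 0.879) between days and -0.46 (SE 0.63, adjusted p = 1) between organs. For Smad4 it was -0.41 (SE 0.22, adjusted p = 0.83) and 0.30 (SE 0.23, adjusted p = 1).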

How the data were processed

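Gene counts for 35 libraries of sorted mKate2-positive cells (poly(A), stranded library kit, 75-base single reads on a HiSeq) were analysed as deposited. Per the study's methods and the submitters' processing notes, the authors made these counts with FastQC 0.11.5, Trimmomatic 0.36, STAR 2.5.3a and featureCounts 1.6.3 on GRCm38; the strand setting of counting is not given in the sources used here. The authors deposited transcript lengths as a score column that was not needed. No per-sample column was left unused (0).

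Groups came from the sample labels. Counts were fitted in edgeR 4.0.16 (R 4.3.3; trimmed mean of M values, filterByExpr with a minimum of 10, robust quasi-likelihood) with Benjamini-Hochberg adjustment, calling genes over 2-fold at an adjusted p under 0.05; these thresholds follow the study, which used DESeq2 (1.42.0 here, as an alternative). CPM are scaled by edgeR; within-library-kind differences used log2(CPM + 0.5). Labels give no culture or shRNA, so p-values measure the spread between these mice. The deviations of libraries sharing a mouse number correlated at 0.491 to 0.63 (median 0.554). Other numbers of the same mt-Co3 kind correlated as much (0.454 to 0.663, median 0.629). No source used here says that equal numbers under both labels are paired. The number was used as a block all the same, and the block is not separable from that technical difference. Calls made with the block alone rest on a pairing that is not stated. No libraries were identical.

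Genes named are Smad4, all genes called without covariates, up to 12 per direction by adjusted p in the block fit with non-overlapping groups, and up to 4 members a list by p plus called members. The members and lists were chosen with earlier results of these data known. Alternatives: DESeq2, DESeq2 size factors, no filter, a stricter filter, covariates, a joint fit of 12 groups and leaving out each library. Scripts were tested on simulated data. Promoter sequences are RefSeq (GRCm38.p6). An allele of the tumor genotype and a gene are not reported here.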

Additional observations from a re-analysis of the deposited data

Results flagged for a closer look

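In groups of 4, a library was set apart where its gap to the nearest other exceeded Dixon's 95% limit. Of 352 such groups (161 named genes and 15 marker lists under each label), 22 were so, and chance alone gives about 1 in 20. In edgeR without covariates no gene's label difference was called as different between days or organs, while DESeq2 called 9 genes between days and 4 between organs and edgeR with the replicate block 6 between days. Of those 6, Col3a1 stood at a log2 interaction of 3.53. Rpl34-ps1, Tma7-ps, Gm10123, Gm10736 and Gm12191 lay between -13.98 and -10.85.

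Among libraries labelled Smad4 on, mouse 2 stood apart for Pax9 (103 CPM), Col27a1 (53.7 CPM) and Insig1 (53.4 CPM). Mouse 4 did for Ltbp1 (167 CPM), Col7a1 (116 CPM), Col3a1 (1323 CPM), P4ha3 (4.18 CPM) and Adamts14 (5.66 CPM), and it also had the highest fibroblast marker sum (1618 CPM, against 347 to 580 CPM in the other 3). Mouse 1 did for Dhh (12.1 CPM) and Nt5e (128 CPM).

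Among libraries labelled Smad4 off, mouse 4 stood apart for Col3a1 (608 CPM), Eln (353 CPM), Loxl4 (39.4 CPM) and Cldn8 (1.49 CPM). Mouse 1 did for Ctse (188 CPM), for Cxcl2 (24.6 CPM) and for the alveolar type 2 marker sum (550 CPM). Mouse 2 did for Serpinb9g (0.69 CPM), Slc28a3 (7.18 CPM), Ccl2 (31.7 CPM) and Oas2 (37.5 CPM). The Y chromosome sum was 0.0868 CPM in mouse 3 and 0 in the others, which is below 3 reads.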

How the results depend on the processing

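With no covariate, 3 genes were higher and 1 lower. DESeq2 gave 129 higher and 84 lower, no filter 16 and 7, the replicate block 82 and 27, mt-Co3 as covariate 95 and 32, DESeq2 with mt-Co3 268 and 118, DESeq2 with the replicate block 232 and 106, and 1 fit of 12 groups 12 and 2. Only libraries with mt-Co3 counts gave 1 and 2, only those without 12 and 6, and mt-Co3 and Xist covariates 8 and 3 (these settings and leaving out libraries from the covariate fit were added after seeing the data). Leaving out 1 library gave 1 to 5 higher and 1 to 2 lower genes. The interaction between days, 0 genes, became 9 with DESeq2, 6 with the replicate block, 1 with the block and mt-Co3, 28 with DESeq2 and mt-Co3, 132 with DESeq2 and the block, and 0 to 8 leaving out 1 library, the 8 without day 7 mouse 1 labelled on. The interaction between organs, 0 genes, became 4 with DESeq2, 11 with mt-Co3 added and 22 with the block. DESeq2 size factors, at least 10 counts in every library and no fold threshold left these counts within 1.5 times. The block and mt-Co3 together could not be fitted at day 14 because the mouse number holds the technical difference. The cause of these changes was not tested.

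Of the named genes, Smad4 kept its call and direction in all 21 settings (log2 fold change -2.75 to -2.50) and Gli2 in the 20 in which it passed the filter (4.51 to 5.90). Slc29a3 was called in 15 of 21 (1.58 to 2.05) and Pax9 in 14 of 21 (1.38 to 1.77). None of the genes that changed sign was called without covariates. Without mouse 4 labelled off these were Smad1 (0.0228, against -0.25 to -0.10 without any other library) and Ndufv1 (0.000722, against -0.227 to -0.09). In only libraries with mt-Co3 counts these were Bcl2l11 (0.0215) and Sdhc (-0.0042), in only those without Foxc2 (0.17, from -0.90), Klf9 (0.014), Psrc1 (-0.0037, from 0.45), Ndufa9 (-0.10) and Ndufv1 (0.0337), and with mt-Co3 and Xist Bcl2l11 (0.0333) and Cspg4 (-0.25, from 1.11). The other 6 lay between -0.24 and 0.19 without covariates.

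Limits: 4 libraries a label, a technical difference between libraries, host and mitochondrial RNA that varied with the label, and Smad4 mRNA opposite to the labels. Genes under 3 reads (0.13 to 0.233 CPM) were not measurable. Dox, shRNA with GFP and Smad4 cannot be told apart.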
